A study of Mus musculus with 6 samples.

Results

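The imprinted growth regulators described here were Igf2, H19, Igf2r, Cdkn1c, Grb10, Peg3, Mest, Plagl1, Ndn and Peg10. They were found by gene symbol among the 18810 genes measured, all 10 were present, and each averaged 1 RPKM or more, where RPKM is read density scaled for exon length and library depth. The 6 libraries were made from atrioventricular canal (AVC) regions of mouse hearts at E15.5, with the mitral, tricuspid and aortic valves inside the dissected piece. Of these, 3 came from embryos carrying the null genotype Scx-/- and 3 from Scx+/+ littermates as controls, with C57BL/6 given as the strain of both. Each library stood for the heart of 1 embryo, no cells were sorted, and the null allele was present in every cell type of the tissue. Scx encodes Scleraxis, a basic helix-loop-helix transcription factor of tendon and valve precursor cells, and the comparison asked which transcripts differ in remodeling valves that lack it.

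Scx itself was 33.6, 18.6 and 82.9 RPKM in Scx-/- replicates 1, 2 and 3, and 29.5, 58.3 and 26.0 RPKM in Scx+/+ replicates 1, 2 and 3. The genotypes overlapped, and the highest values were in Scx-/- replicate 3 and Scx+/+ replicate 2. Such whole-gene values include sequence outside the targeted exon, so they do not check the genotypes, and libraries are called by their labels. The study measured the targeted exon separately before sequencing and reported lower expression in Scx-/- samples than in controls. That measurement was not analysed here. Recovered depth was 52323447, 66991283 and 59737811 reads in the Scx-/- libraries and 60027721, 46429969 and 68570998 reads in the Scx+/+ libraries. Xist and Y-linked genes marked replicate 2 of both genotypes as female and the other libraries as male.

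The dissection aimed to leave myocardium out, yet transcripts of heart muscle were abundant. The 8 cardiomyocyte markers summed to 14347, 11449.9 and 16317 RPKM in Scx-/- and to 12851, 18224 and 10700.3 RPKM in Scx+/+, with Tnnt2, a thin filament protein, the most abundant. Markers of valve mesenchyme were also present, with sums of 435, 572 and 558 RPKM in Scx-/- and 444, 455 and 407 RPKM in Scx+/+. Postn, a matrix protein of the maturing valve, led that list, and Sox9, a transcription factor of cushion mesenchyme, lay between 1.26 and 3.36 RPKM. Transcripts of myocardium and of valve cells were thus both in the RNA. In such bulk samples, fewer cells of a type and less RNA per cell cannot be told apart.

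Imprinted genes are transcribed mainly from the allele of a single parent, because DNA methylation laid down in the egg or sperm marks that allele at a control region. Many of them set the size of the embryo: paternally expressed Igf2, Mest, Peg3 and Plagl1 favour growth, whereas maternally expressed H19, Igf2r, Cdkn1c and Grb10 restrain it. In the developing heart, Igf2 is a mitogen for cardiomyocytes, and Cdkn1c restrains cell cycle entry. On mm9, Igf2 (ENSMUSG00000048583) lies on the minus strand at chr7:149836673-149852721, H19 (ENSMUSG00000000031) beside it at chr7:149761434-149764048 and Cdkn1c (ENSMUSG00000037664) at chr7:150644255-150646955. Peg3 and Ndn are elsewhere on chromosome 7, Mest and Peg10 on chromosome 6, Plagl1 on 10, Grb10 on 11 and Igf2r on 17, so linkage joins only some of them. The values below are totals over both alleles and contain no information on imprinting itself.

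The control regions of Plagl1, Peg3 and Mest lie at their promoters, where CG dinucleotides are the bases that carry the parental methylation. For that reason a promoter of each gene is shown, from 250 bases before to 50 bases after the start site, as given by RefSeq on GRCm38.p6. CG dinucleotides are in capitals.
Plagl1, chr10:13090582-13090881, plus strand: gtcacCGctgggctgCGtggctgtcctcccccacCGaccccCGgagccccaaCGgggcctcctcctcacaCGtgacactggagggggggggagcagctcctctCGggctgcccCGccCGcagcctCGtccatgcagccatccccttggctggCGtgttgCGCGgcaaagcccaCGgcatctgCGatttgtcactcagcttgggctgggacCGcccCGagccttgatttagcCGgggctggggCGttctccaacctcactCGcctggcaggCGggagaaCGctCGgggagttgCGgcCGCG
Peg3, chr7:6730370-6730669, minus strand: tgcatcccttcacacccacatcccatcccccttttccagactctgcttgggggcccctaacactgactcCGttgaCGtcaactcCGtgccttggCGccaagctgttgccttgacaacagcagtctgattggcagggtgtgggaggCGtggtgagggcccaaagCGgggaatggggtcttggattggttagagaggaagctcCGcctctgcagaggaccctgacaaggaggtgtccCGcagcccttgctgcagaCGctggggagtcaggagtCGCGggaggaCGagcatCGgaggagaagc
Mest, chr6:30737800-30738099, plus strand: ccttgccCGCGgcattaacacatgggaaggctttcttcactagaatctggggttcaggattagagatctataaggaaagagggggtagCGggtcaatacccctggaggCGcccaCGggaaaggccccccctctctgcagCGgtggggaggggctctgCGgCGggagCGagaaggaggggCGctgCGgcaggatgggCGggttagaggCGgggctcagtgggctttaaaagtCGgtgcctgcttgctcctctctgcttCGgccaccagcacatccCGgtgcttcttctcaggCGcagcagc
Plagl1 held 26 CG dinucleotides in these 300 bases, Mest 17 and Peg3 13, against a median of 7 over 32851 promoters of the same length. Another Mest promoter, at chr6:30733256-30733555 and not shown, held 8. RefSeq promoters were matched for 7 of the 10 genes, 13 promoters in all with a median of 14 CG dinucleotides, and the upper quartile over all promoters was 20. The densest was a Grb10 promoter with 45, and the sparsest was an Igf2 promoter with 2. Methylation was not measured in these libraries.

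Averaged over the 6 libraries, H19 stood far above the rest at 2170.0 RPKM and ranked 46 of 18810 genes. Igf2r followed at 211 RPKM, then Grb10 at 149 RPKM, Mest at 129 RPKM, Igf2 at 103 RPKM and Cdkn1c at 67.3 RPKM. Plagl1, Ndn and Peg3 lay close together at 20.4, 19.01 and 18.8 RPKM, and Peg10 was lowest at 1.80 RPKM. Most steps of this order held in 6 of 6 libraries. The step from Igf2r to Grb10 held in 5 of 6, and those from Plagl1 to Ndn and from Ndn to Peg3 in 3 of 6, so Plagl1, Ndn and Peg3 did not differ beyond their spread. Behind these levels were 148794 to 427884 reads for H19, 18543 to 47125 for Igf2 and 1192 to 2184 for Ndn. Reads could not be recovered as whole numbers for Peg10.

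**Figure D1:**
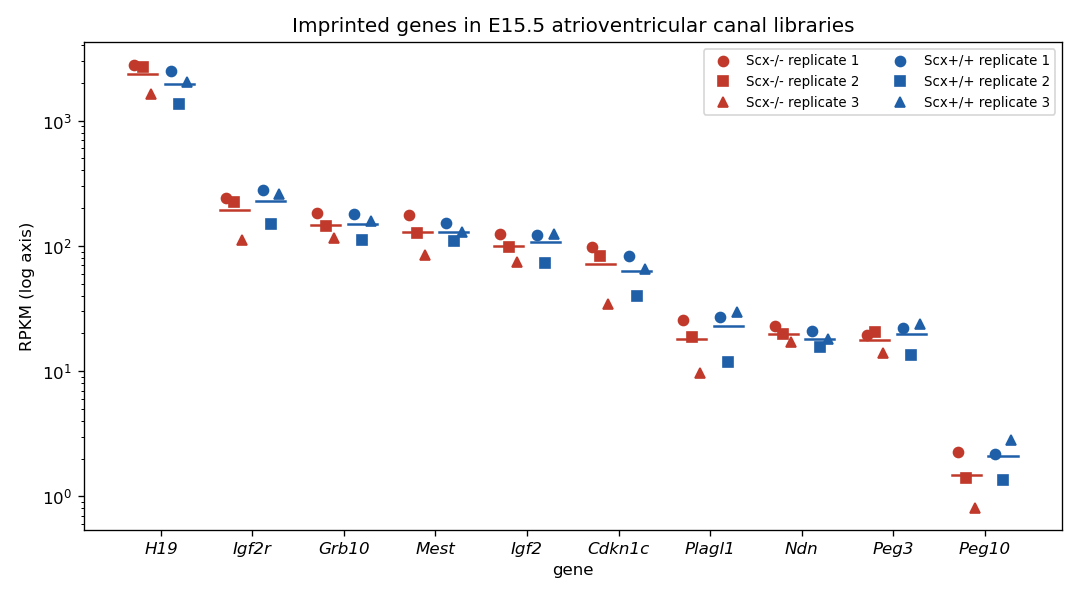
RPKM of each imprinted gene in each library on a log axis, with genes ordered by their mean; red points are Scx-/- libraries, blue points are Scx+/+ libraries, marker shapes give the replicate and bars give group means. Within each genotype the lowest point of every gene is Scx-/- replicate 3 or Scx+/+ replicate 2, and the genotypes overlap for all 10 genes.

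Igf2, the fetal insulin-like growth factor, was 125, 98.0 and 74.2 RPKM in Scx-/- replicates 1, 2 and 3. In Scx+/+ replicates 1, 2 and 3 it was 123, 72.7 and 125 RPKM. High and low libraries occurred in both genotypes, and the mean of the null hearts, 99.2 ± 25.6 RPKM (SD, n = 3), was within the spread of the controls, 107 ± 29.5 RPKM (SD, n = 3). The log2 fold change of Scx-/- over Scx+/+ was -0.10 (standard error 0.27, limma adjusted p = 0.987). Its 95% interval ran from -0.71 to 0.51, or from 0.612-fold to 1.43-fold, a range of changes that 3 libraries a genotype do not tell apart. Fold changes here are differences of log2(RPKM + 0.1), so a change in a weakly expressed gene appears smaller than it is. An exact two-sided permutation test of Igf2 gave p = 1, where 3 against 3 libraries cannot give less than 0.1.

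H19, the maternally expressed noncoding RNA that shares enhancers with Igf2, was 2805, 2693 and 1642 RPKM in Scx-/- and 2488, 1351 and 2041 RPKM in Scx+/+. The lowest Scx-/- library lay below the Scx+/+ libraries of replicates 1 and 3, so the genotypes overlapped. Means were 2379.9 ± 642 RPKM (SD, n = 3) and 1960.1 ± 573 RPKM (SD, n = 3). The log2 fold change was 0.28 (standard error 0.38, 95% interval -0.57 to 1.14, limma adjusted p = 0.967). The ratio of H19 to Igf2 varied slightly less between libraries than the RPKM of either gene, with a highest value 1.68 times the lowest, against 1.72 times for Igf2 and 2.08 times for H19. It was 22.4, 27.5 and 22.1 in Scx-/- against 20.3, 18.6 and 16.3 in Scx+/+, or 24.0 ± 3.02 (SD, n = 3) and 18.4 ± 2.0 (SD, n = 3). Each Scx-/- ratio was above each Scx+/+ ratio, a description of a ratio picked after the values were seen, which was not tested.

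H19 is also the host of miR-675, which is cut from its first exon, and Mest is the host of miR-335. Their mature forms from RefSeq are shown with the seed, bases 2 to 8, in capitals, and no seed is shared.
miR-675-5p: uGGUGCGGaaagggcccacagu
miR-675-3p: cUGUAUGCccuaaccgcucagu
miR-335-5p: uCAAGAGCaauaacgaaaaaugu
miR-335-3p: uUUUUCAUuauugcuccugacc
The precursor gene Mir675 was listed at 249, 175 and 109 RPKM in Scx-/- and 158, 89.0 and 140 RPKM in Scx+/+, with the same low libraries as H19. It shares 84 exon bases with H19 on the same strand, so reads of the host and of the precursor cannot be told apart, and the values are no measure of the mature miRNA. Mir335 lies in an intron of Mest and was between 1.37 and 3.51 RPKM. Igf2as, an antisense gene of Igf2 with 98 shared exon bases, was between 1.08 and 2.81 RPKM, far below Igf2.

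Igf2r, the cation-independent mannose 6-phosphate receptor that carries Igf2 to lysosomes, was 243, 223 and 112 RPKM in Scx-/- and 279, 150 and 260 RPKM in Scx+/+. Scx-/- replicate 3 and Scx+/+ replicate 2 were low, and the other 4 libraries lay at 223 RPKM or above. The log2 fold change was -0.28 (standard error 0.35, 95% interval -1.06 to 0.50, limma adjusted p = 0.967). Airn, the paternally expressed antisense RNA that silences Igf2r on the paternal chromosome, overlaps Igf2r with 0 shared exon bases and was between 4.45 and 10.7 RPKM. Its lowest libraries were the same as those of Igf2r. A ratio of Igf2r to Igf2 of 1.503 in Scx-/- replicate 3 was the lowest, and the other 5 libraries lay between 1.94 and 2.28.

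Grb10, an adaptor that dampens signalling from the insulin and Igf1 receptors, was 184, 144 and 115 RPKM in Scx-/- and 178, 112 and 159 RPKM in Scx+/+. Its means were 147 ± 34.7 RPKM (SD, n = 3) and 149.8 ± 33.9 RPKM (SD, n = 3), the closest to each other in log2 fold change of the 10 genes at -0.02 (95% interval -0.57 to 0.53). This rank depended on the scaling. With the median of each library set to 0, Grb10 was at -0.13, and Cdkn1c at 0.0135 and Ndn at 0.023 had smaller changes.

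Cdkn1c, the cyclin-dependent kinase inhibitor p57, was 98.2, 82.8 and 34.4 RPKM in Scx-/- and 83.3, 39.9 and 65.2 RPKM in Scx+/+. A single library of each genotype was low, and the other 4 libraries lay at 65.2 RPKM or above. Scx-/- replicate 3 had 0.380 of the mean of the other Scx-/- libraries, the largest such drop among the 10 genes. The log2 fold change was 0.12 (standard error 0.40, 95% interval -0.79 to 1.04, limma adjusted p = 0.989). After quantile normalization it was -0.02. Its relatives Cdkn1a and Cdkn1b, which are not imprinted, had means of 1.47 and 11.8 RPKM, and neither was lowest in those libraries as a pair.

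Plagl1, a zinc finger transcription factor that regulates other imprinted genes, was 25.5, 18.6 and 9.67 RPKM in Scx-/- and 27.2, 11.8 and 29.9 RPKM in Scx+/+. Peg3, a paternally expressed zinc finger protein, was 19.3, 20.3 and 14.0 RPKM in Scx-/- and 22.1, 13.4 and 23.7 RPKM in Scx+/+. Both genes had their low values in the same libraries as Igf2, and the genotypes overlapped. Plagl1 had the wider spread, with a highest value 3.09 times the lowest against 1.77 times for Peg3. The log2 fold changes were -0.35 for Plagl1 (95% interval -1.31 to 0.60) and -0.12 for Peg3 (95% interval -0.69 to 0.46).

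Mest, a paternally expressed member of the alpha/beta hydrolase family, was 175, 127 and 84.97 RPKM in Scx-/- and 151, 109 and 129 RPKM in Scx+/+. Ndn, which encodes necdin, a growth suppressor of the MAGE family, was 22.9, 19.7 and 17.02 RPKM in Scx-/- and 20.8, 15.5 and 18.01 RPKM in Scx+/+. Peg10, derived from a retrotransposon and required in the placenta, was 2.26, 1.404 and 0.808 RPKM in Scx-/- and 2.18, 1.35 and 2.80 RPKM in Scx+/+. Ndn was the steadiest of the 10 genes, with a highest value 1.47 times the lowest, and Peg10 the most variable by this ratio at 3.46 times. By the SD of log2(RPKM + 0.1) over the libraries, Plagl1 (0.67) and Cdkn1c (0.619) varied more than Peg10 (0.612). The added 0.1 lowers the SD of the weakly expressed Peg10, so its order against Cdkn1c depends on that setting. The log2 fold changes were -0.06 for Mest (95% interval -0.67 to 0.55), 0.13 for Ndn (95% interval -0.29 to 0.56) and -0.52 for Peg10 (95% interval -1.49 to 0.44). Copg2 shares 904 exon bases with Mest on the opposite strand, 22.96% of the exon bases of Mest. The counting is not stated to use strand, so part of the Mest value could come from Copg2, which was between 53.2 and 85.9 RPKM.

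None of the 10 genes differed between genotypes in the limma fit at an unadjusted p below 0.05, against 3.89% of all genes (731 of 18810). Tests of each gene with its own variance also called 0 of the 10, against 865 of 18810 genes on the log2 scale and 848 on the RPKM scale. After Benjamini-Hochberg adjustment 0 of the 10 and 0% of all genes were called, and the smallest adjusted p of any gene was 0.173. In 0 of the 10 were the 3 Scx-/- libraries all above or all below the 3 Scx+/+ libraries, against 9.5% of all genes. The genome-wide count was 1549 without Scx+/+ replicate 2, and still 0 of the 10 genes were called. The median log2 fold change was -0.08 for the 10 genes and 0.10 for all genes, and 7 of the 10 were below 0. Without Scx-/- replicate 3 alone, 6 of these 7 were above 0, from 0.033 for Plagl1 to 0.21 for Mest, and only Peg10 stayed below 0. Cdkn1c, above 0 with all libraries, was below 0 without Scx-/- replicate 1, Scx-/- replicate 2 or Scx+/+ replicate 2, so no direction is given for it or for these 6.

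**Figure D2:**
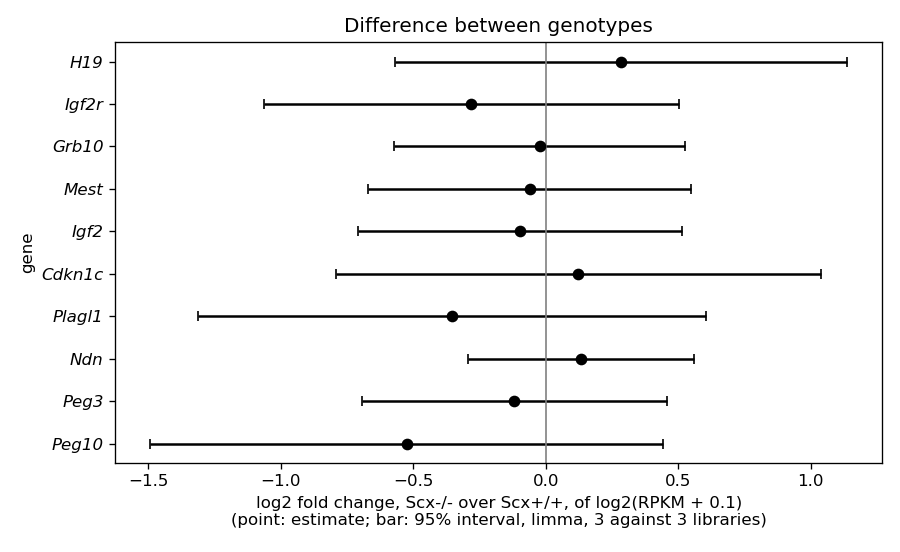
Log2 fold change of Scx-/- over Scx+/+ for each imprinted gene, from log2(RPKM + 0.1); points are limma estimates and bars their 95% intervals from 3 against 3 libraries. All 10 intervals include 0, and the widest, of Peg10, runs from -1.49 to 0.44.

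The centre of all genes shifted with the scaling. Of the 731 genes called, 531 were higher and 200 lower in Scx-/-, so 72.6% were higher. With the library medians set to 0, the split was 281 to 365 (43.5% higher), and after quantile normalization it was 352 to 353 (49.9% higher). The median log2 fold change of all genes was then -0.0045 and 0.016, in place of 0.10. For the imprinted genes the median became -0.19 and -0.21 (-0.08 before). With the median set to 0, H19 was at 0.18, Igf2r at -0.39, Igf2 at -0.21 and Plagl1 at -0.46, none of them called. Ndn was then at 0.023 (0.13 before), Cdkn1c at 0.0135 (0.12 before) and Grb10 at -0.13 (-0.02 before), also not called.

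The 10 genes shared their low libraries across the genotypes. Scx-/- replicate 3 and Scx+/+ replicate 2 were the lowest libraries for all 10 genes, a pattern found in 18.3% of all 18810 genes and in 19.5% of the 13827 genes averaging 1 RPKM or more. It was seen in these values first and then counted, and no test was made of it. Either library was lowest for 5 genes, and the highest library was Scx-/- replicate 1 for 6 genes, Scx+/+ replicate 3 for 3 and Scx+/+ replicate 1 for Igf2r. With the median of each library set to 0 and after quantile normalization, both chosen here after seeing the data, the pattern held for 9 of the 10 genes, all but Peg10. The shares of all genes were then 16.6% and 15.3%.

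The median of the 10 genes relative to their own means was 0.37, 0.04 and -0.50 on the log2 scale in Scx-/- replicates 1, 2 and 3, and 0.29, -0.44 and 0.22 in Scx+/+ replicates 1, 2 and 3. For the genes averaging 1 RPKM or more it was 0.15, 0.03 and -0.01 in Scx-/- and 0.02, -0.05 and -0.13 in Scx+/+. Between libraries, the highest value of a member was a median of 2.07 times its lowest, against 1.79 times for the same 13827 genes.

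**Figure D3:**
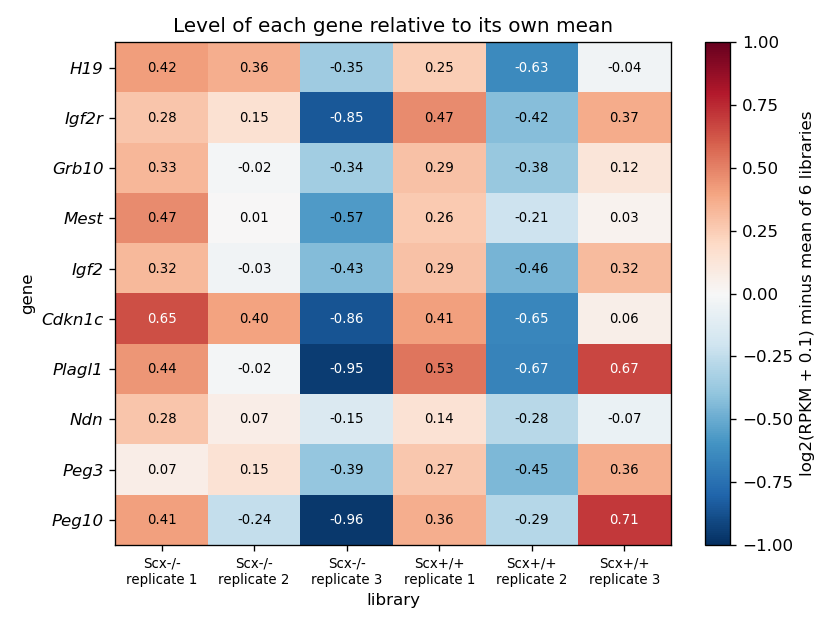
Level of each imprinted gene (rows) in each library (columns) as log2(RPKM + 0.1) minus its own mean over the 6 libraries; red is above and blue below that mean. The columns of Scx-/- replicate 3 and Scx+/+ replicate 2 are below the mean for all 10 genes, from -0.15 for Ndn to -0.96 for Peg10 in the former.

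Hbb-y, an embryonic beta-like globin, was 1.16 RPKM in Scx-/- replicate 3 and 1.99 RPKM in Scx+/+ replicate 2, against 49.6 to 125 RPKM in the other 4. Hbb-bh1, another embryonic globin, was at the fill-in value of 0.0949 RPKM in both and in Scx-/- replicate 1, and at most 0.778 RPKM elsewhere. The sum of the 7 erythroid markers, led by Hba-a1, was 6744, 7157 and 4731 RPKM in Scx-/- and 3938, 5325 and 7039 RPKM in Scx+/+, lowest in Scx+/+ replicate 1. The median of these 7 genes relative to their own means was 0.29, 0.54 and -0.31 on the log2 scale in Scx-/- and -0.33, -0.82 and 0.35 in Scx+/+, lowest in Scx+/+ replicate 2. Of the 7, only Hbb-y was lowest in that pair, and Hbb-b1, an adult beta globin, was between 1388 and 2753 RPKM.

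Several cardiomyocyte transcripts were high where the imprinted genes were low. Myh6, the alpha myosin heavy chain, was 970, 900 and 1556 RPKM in Scx-/- and 1147, 2219 and 999 RPKM in Scx+/+, highest in Scx+/+ replicate 2 and Scx-/- replicate 3. Tnni3, the cardiac troponin I, was 761, 563 and 1110 RPKM in Scx-/- and 559, 1321 and 521 RPKM in Scx+/+, with the same order at the top. In all, 5 of the 8 cardiomyocyte markers (also Tnnt2, Actc1 and Pln) were highest in these libraries, against 10.7% of all genes, and 0 of the 8 were lowest there. The other 3 differed: Myh7 was 2313, 1923 and 2148 RPKM in Scx-/- and 2824, 2826 and 2379.6 RPKM in Scx+/+, Nppa was 453 RPKM in Scx-/- replicate 3 but 1440.3 RPKM in Scx+/+ replicate 2, and Ryr2 was highest in Scx+/+ replicate 3 at 55.9 RPKM. Of the valve mesenchyme markers, 5 of 8 were lowest there (Sox9, Col3a1, Vcan, Tbx20 and Msx1), against 18.3% of all genes. Postn was instead highest in Scx-/- replicate 3 at 387 RPKM.

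Depth and summed RPKM were compared as well. The RPKM of all genes summed to 959480, 923053 and 1240390 in Scx-/- and to 820019, 2295480 and 1034590 in Scx+/+, highest in Scx+/+ replicate 2 and next in Scx-/- replicate 3. The 10 genes with the highest RPKM took up 56.9% of the summed RPKM in Scx+/+ replicate 2 and 33.8% in Scx-/- replicate 3, while in the remaining hearts they took up 30.7% to 43.9%. RPKM weights short genes heavily, and 7SK, a short noncoding RNA, had the highest mean. These are therefore not shares of reads or of RNA. Genes at the fill-in value numbered 2252 in Scx+/+ replicate 2, the shallowest library, and 1333 in Scx-/- replicate 3, against 1088 to 1465 elsewhere. The libraries of the pair differed in genotype and in sex. The part of muscle content, embryonic globin, depth or RNA composition in the low values of the imprinted genes was not tested. With both libraries left out, an alternative added after seeing the data, 0 of the 10 genes were called and the genome-wide count was 1587.

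The genes whose pattern over the 6 libraries was closest to that of Igf2, by the root mean square difference of centred log2 values among 5275 genes averaging 10 RPKM or more, were Nisch (0.05), Abi2 (0.06) and Gm17460 (0.07). Grb10 ranked 14 and Peg3 ranked 36 by this measure, and H19 ranked 374. For H19 the closest were Cnn1 (0.06), Srsf6 (0.06) and Ddx39b (0.07), with Cnn1, the smooth muscle calponin, at 56.9, 55.8 and 32.1 RPKM in Scx-/- and 48.8, 29.9 and 43.0 RPKM in Scx+/+. For Cdkn1c they were Ccng2 (0.16), Tnnt1 (0.16) and Col18a1 (0.17), and H19 ranked 16.

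Of 50 further imprinted genes listed, 35 were measured, 1 was called higher and 0 lower in Scx-/-, not above the 3.89% called over all genes. The list does not hold every imprinted gene, so this share covers only the genes listed. Of the 35, 11 were lowest and 3 highest in the same libraries, against 18.3% and 10.7% of all genes. Mirg, a maternally expressed noncoding RNA of the Dlk1 and Meg3 cluster, was the gene called among the 35. It was 2.91, 3.42 and 2.27 RPKM in Scx-/- and 2.25, 0.895 and 1.41 RPKM in Scx+/+. Each Scx-/- library was above each Scx+/+ library, by little between Scx-/- replicate 3 and Scx+/+ replicate 1. The log2 fold change was 0.94 (standard error 0.37), with a limma adjusted p of 0.967. Its neighbours Meg3 and Rian were both lowest in Scx+/+ replicate 2, and neither was called. Of all 54 genes measured from Meg3 to Mirg, an interval counted after the values were seen, 4 were called higher (Mirg, Mir134, Mir758 and Mir1193) and 3 lower (Mir432, Mir539 and Gm17639), against 3.89% of all genes. The 5 called miRNA genes were at the fill-in value in 1 to 4 libraries, Mir134 and Mir758 in all 3 Scx+/+ libraries, and RPKM of such short genes are no measure of the mature miRNA.

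Of the 17 measured genes listed as paternally expressed, 3 were lowest in the pair, Nnat, Inpp5f and Airn, and the most abundant, Ddc, was highest there, as was Mcts2. Sgce, which completes the 3 with the highest means, was between 10.7 and 17.1 RPKM. Of the 17 listed as maternally expressed, 7 were lowest there, Meg3, Rian, H13, Zim1, Asb4, Ppp1r9a and Osbpl5, and Kcnq1 was highest. The lists do not ask in which tissue a gene is imprinted, and allele use in these hearts was not measured. Dcn, the proteoglycan decorin, was the most abundant at 148, 170 and 172 RPKM in Scx-/- and 113, 147 and 113 RPKM in Scx+/+. Cd81 and Ube3a were next, between 80.6 and 103 RPKM and between 44.4 and 64.2 RPKM. Gnas, whose imprinted allele depends on the transcript, was lowest in the same libraries at 35.7 and 36.4 RPKM.

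Partners of Igf2 in the insulin-like growth factor axis were described in the same way. Of 15 measured genes, 10 were lowest in the same libraries (against 18.3% of all genes), 2 (Igfbp6 and Igfbp7) were highest there, and 0 were called in either direction. Igfbp7, Igfbp5 and Igfbp3, secreted binding proteins, were the most abundant. Igfbp5 was 19.5, 17.2 and 10.5 RPKM in Scx-/- and 28.9, 12.4 and 31.8 RPKM in Scx+/+, whereas Igfbp7 was 17.1, 21.5 and 35.4 RPKM in Scx-/- and 15.2, 27.7 and 19.4 RPKM in Scx+/+. The other ligand, Igf1, had a mean of 9.29 RPKM, far below that of Igf2. Igf1r, the receptor through which Igf2 signals, was 7.37, 5.45 and 4.75 RPKM in Scx-/- and 7.83, 6.72 and 9.60 RPKM in Scx+/+, and was not called. Igf1r, the insulin receptor gene Insr and the adaptor gene Irs2 were neither lowest nor highest in the pair.

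Of 9 measured genes that set or maintain imprints, 6 were lowest in these libraries (Dnmt1, Dnmt3a, Uhrf1, Zfp57, Trim28 and Ctcf), against 18.3% of all genes, 0 were highest there and 0 were called. Dnmt3b, Smchd1 and Eed were not lowest there, and Eed, a Polycomb protein, was 24.4, 18.4 and 22.6 RPKM in Scx-/- and 15.1, 21.5 and 12.97 RPKM in Scx+/+, highest in Scx-/- replicate 1. Dnmt1, the maintenance DNA methyltransferase, was 29.0, 24.5 and 17.4 RPKM in Scx-/- and 31.9, 17.5 and 24.3 RPKM in Scx+/+. Trim28, the corepressor recruited by Zfp57 to imprinted regions, was 28.9, 21.1 and 15.04 RPKM in Scx-/- and 24.4, 15.5 and 20.6 RPKM in Scx+/+. Smchd1, the other of the 3 most abundant, was between 18.1 and 27.2 RPKM and was lowest in Scx+/+ replicate 2.

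**Figure D4:**
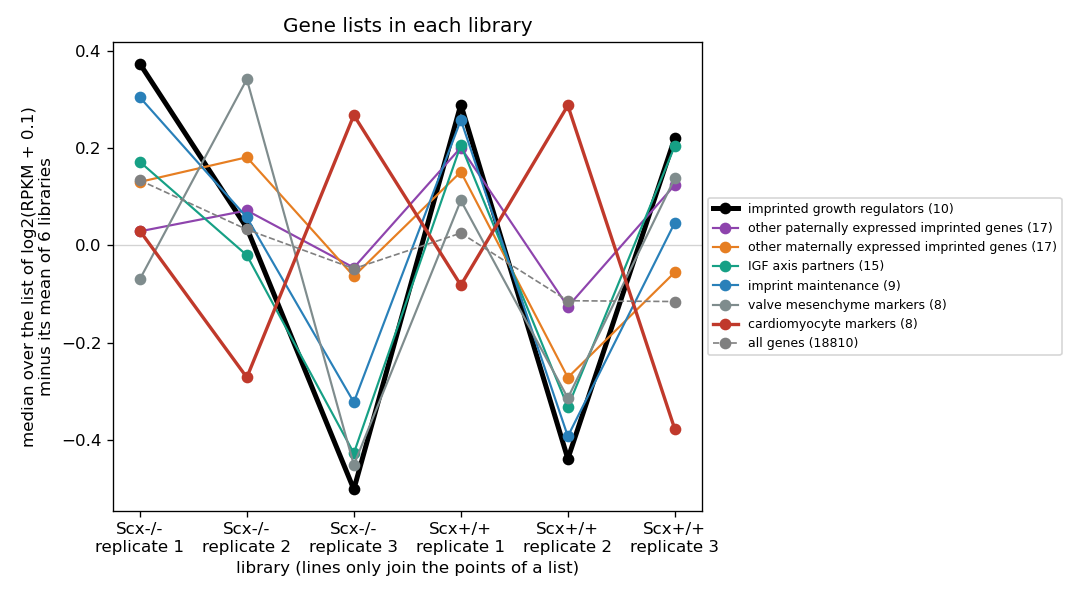
Median over each gene list of log2(RPKM + 0.1) minus each gene's mean of the 6 libraries, by library; lines join the points of a list, and the number of genes measured stands in brackets. The imprinted growth regulators fall to -0.50 in Scx-/- replicate 3 and -0.44 in Scx+/+ replicate 2, where cardiomyocyte markers are at 0.27 and 0.29.

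Of 18 cyclins, cyclin-dependent kinases, inhibitors and proliferation markers, 4 were lowest in the same libraries (Cdk2, Cdk4, Cdk6 and Rbl1), against 18.3% of all genes, 2 were highest there (Ccne1 and Ccne2) and 0 were called. Ccna2, Mki67 and Pcna were the most abundant, and Mki67, a proliferation marker, was 64.3, 53.1 and 57.1 RPKM in Scx-/- and 75.1, 45.0 and 64.1 RPKM in Scx+/+. Of 10 relatives of the imprinted genes, 0 were called, 4 were lowest there (Plag1, Plagl2, Maged1 and Igf1) and Grb14, a relative of Grb10, was highest. Maged2, Maged1 and M6pr had the highest means of these.

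Of the remaining cell type markers, 2 of 6 epicardial genes were called higher in Scx-/-, against 3.89% of all genes called in either direction. Upk1b was 5.53, 5.17 and 3.81 RPKM in Scx-/- and 3.18, 3.63 and 2.56 RPKM in Scx+/+, and Aldh1a2, which makes retinoic acid, was 5.10, 4.02 and 4.27 RPKM against 3.30, 3.33 and 2.20 RPKM. Their log2 fold changes were 0.61 and 0.60, with a limma adjusted p of 0.967 for each. With the library medians set to 0 they were 0.50 and 0.49 and neither was called, and after quantile normalization Aldh1a2, at 0.54, was not called. Upk3b and Tbx18 were between 4.47 and 8.66 RPKM and between 4.44 and 10.3 RPKM. Among 6 macrophage genes Cd68 was called higher, at no more than 1.54 RPKM, whereas C1qa, C1qb and Mrc1, the most abundant, were at most 6.13, 4.24 and 4.64 RPKM and not called. Among cardiomyocyte genes Ryr2, the calcium release channel, was called lower at -0.46 on the log2 scale. No endothelial, erythroid, valve mesenchyme or smooth muscle marker was called. Pecam1, Tek and Kdr, the most abundant endothelial markers, were between 33.3 and 39.4, 22.8 and 35.0, and 14.4 and 24.4 RPKM. Of smooth muscle, Acta2 was between 343 and 549 RPKM and Tagln between 47.8 and 112 RPKM. Hepatocyte markers Ttr and Apoa2 were at most 0.623 RPKM and Myh3 of skeletal muscle at most 0.474 RPKM, while Acta1, the skeletal alpha actin that fetal heart muscle also expresses, was between 61.4 and 83.6 RPKM. These were 2 of 5 hepatocyte and 2 of 5 skeletal muscle genes looked up, and the others and the 3 lung epithelium genes were not analysed here.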

How the data were processed

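RNA of 6 AVC libraries, 3 per genotype, was sequenced by the authors, aligned to mm9 with TopHat 1.4.1, counted per Ensembl gene and deposited as RPKM, with low values replaced by a common fill-in value. Reads were recovered from RPKM and exon length in an earlier release of the same annotation, which held 18695 of 18810 identifiers. Values under 1000 reads came out whole, within 0.1 read, for 98.5% to 98.6% per library. Depth describes precision only.

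Genotypes were compared in R 4.3.3 by limma 3.58.1, two-sided, from log2(RPKM + 0.1) and an intensity trend, with adjustment over the whole table. Genes were called below an unadjusted p of 0.05. The steps were tested on simulated data. Alternatives were other pseudocounts, a filter, no trend, tests per gene with its own variance, other scalings, sex, the replicate block and each library left out. Named genes were the 10, the called and the 3 most abundant genes of each list, and the 3 nearest in pattern, apart from genes singled out after their values were seen, and 1 gene that is not reported here. The 10 genes and the lists were chosen with earlier results of these data known. Other steps used Python 3.11.15, pandas 2.3.3, numpy 2.4.6, matplotlib 3.10.9 and scipy 1.17.1.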

Additional observations from a re-analysis of the deposited data

How the results depend on the processing

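Over 17 alternative settings, 0 of the 10 imprinted genes were called in each, and of 170 log2 fold changes 153 kept their sign and 17 reversed. Some settings cannot alter the estimate, so their signs were kept by construction. These were the filter, the fit without trend, the per-gene test on the log2 scale, sex and the replicate block. The smallest unadjusted p among them was 0.0956 and the smallest adjusted p 0.595. Quantile normalization put Cdkn1c at -0.025. With Scx-/- replicate 3 and Scx+/+ replicate 2 left out together, added after seeing the data, Mest was at 0.091 and 1587 genes were called genome-wide. With each library left out in turn, that count ran from 539 to 1549. The log2 fold change then ran from -0.35 to 0.10 for Igf2, -0.56 to 0.073 for Igf2r, -0.17 to 0.59 for Cdkn1c, -0.22 to 0.14 for Grb10, -0.37 to 0.048 for Peg3, -0.31 to 0.21 for Mest and -0.78 to 0.033 for Plagl1. It kept its sign for H19 (0.039 to 0.53), Ndn (0.026 to 0.24) and Peg10 (-0.86 to -0.17). The values rest on 2 or 3 libraries a genotype, and the cause was not tested. With the replicate number as a block (replicate block), 573 genes and 0 of the 10 were called. The balanced block leaves each estimate as it was, -0.10 for Igf2. Deviations of libraries with the same number correlated at 0.0921, -0.22 and -0.188, against 0.32 for Scx-/- replicate 3 and Scx+/+ replicate 2. Differences between libraries that are not due to litter also enter these correlations, so they cannot tell whether the numbers pair littermates. Each gene but Peg10 had at least 1192 reads in every library.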
